A study of Arabidopsis thaliana with 33 samples.

Results

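STZ, WRKY53 and TET8 are 3 stress-related genes of Arabidopsis thaliana. The platform annotation gives 13356 genes a probe set of their own, and each of these 3 is measured by 1 of the array's 22746 probe sets. They were picked because their levels were higher in the maturation zone of the root than in both younger zones, so these zone differences are a description and were given no test. The members are the probe sets that the platform annotation pairs with STZ (AT1G27730), WRKY53 (AT4G23810) or TET8 (AT2G23810) and with no other gene, and all 3 are present on every array. The study used 33 arrays. Of these, 24 came from 12 matching cross-sections of each of 2 single roots, 7 days after germination: 6 sections of the meristematic zone, 2 of the elongation zone and 4 of the maturation zone (about 500 micrometres each), counted from the tip. A further 8 held root cells of seedlings 5 to 6 days old, freed from their walls as protoplasts and sorted on the green fluorescence of a reporter line, with 1 array per line here. The last array, a columella section below the quiescent centre, belonged to root 1 alone. All plants grew on standard medium with sucrose and received no treatment, and the labels name no mutant or ecotype.

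STZ, also called ZAT10, is a zinc finger repressor of transcription that is induced by salt, cold, drought, strong light and wounding. WRKY53 is a transcription factor that binds W-box promoter elements and acts in pathogen responses and leaf senescence. TET8 is a tetraspanin, a small protein of the plasma membrane that organises membrane microdomains and marks the extracellular vesicles that Arabidopsis leaf cells release.

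Array medians were 0.79 to 1.04 in the deposited intensity, but the spread of the log2 values differed: its SD was 0.137 in the columella section, 0.426 in elongation section 2 of root 1 and 0.634 to 1.53 in the other arrays. For elongation section 2 of root 1 the labels disagree, with root 2 in the description and a title of the root 1 series, and it was kept in root 1. Of the defining markers of cell types, 2 of 3 measured root hair genes rose from the meristematic to the maturation zone (EXPA7 by log2 2.14 ± 0.19 SE and EXPA18 by 2.29 ± 0.22), 1 of 2 phloem genes rose (ATC, 2.41 ± 0.39), both histone genes of dividing cells fell (HTB1, -1.85 ± 0.20, and HTB2, -1.90 ± 0.14) and 0 of 2 pericycle and lateral root genes passed (LBD16 and LBD29). The limma adjusted p values of the 5 that passed were 0.00808, 0.00855, 0.0231, 0.0107 and 0.00591 in that order, and those of LBD16 and LBD29 were 0.0543 and 0.334. With equal array spreads none of these 5 passed (0.0943, 0.0859, 0.0571, 0.0611 and 0.0629), ATC did not pass with an offset of 1 (0.0598) and HTB1 did not after quantile normalization (0.0511). ATC and EXPA7 each lost the call in 1 of the 24 fits that leave out 1 array (0.0674 without maturation section 3 of root 1, and 0.0535 without elongation section 1 of root 2). The platform annotation paired no xylem, endodermis or root cap marker of the list with a probe set, so none could be read. These 5 markers, up or down, changed between the same zones as the levels below, and their part in them was not tested. From the elongation to the maturation zone EXPA7 was at log2 -0.19 ± 0.19 SE, EXPA18 at -0.24 ± 0.22 and ATC at 1.07 ± 0.39. None of these 3 differences passed (limma adjusted p = 0.672, 0.637 and 0.370). In bulk sections a smaller share of expressing cells and less RNA per cell cannot be told apart.

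STZ was low in the meristematic zone and high in the maturation zone of both roots. In root 1 its intensity in meristematic sections 1 to 6 was 1.05, 0.882, 1.02, 1.07, 1.40 and 1.58, then 2.85 and 1.99 in elongation sections 1 and 2, and 5.93, 13.3, 15.5 and 8.95 in maturation sections 1 to 4. In root 2 the same sections gave 1.23, 1.03, 1.95, 2.85, 2.23 and 2.63, then 6.41 and 5.41, and 11.7, 16.8, 16.6 and 22.0. The highest section was maturation section 3 in root 1 and section 4 in root 2. By rank among the probe sets of its array, section 4 was highest in both roots (percentile 99.3 and 99.2). In root 1 maturation sections 1 and 4 had narrower arrays (log2 SD 0.660 and 0.639) than sections 2 and 3 (0.882 and 1.05). By intensity, in both roots every maturation section lay above every elongation section, which lay above every meristematic section of that root. The maturation zone exceeded the meristematic zone by log2 3.16 in root 1 and 3.14 in root 2 (mean 3.15 ± 0.0163 SD, n = 2 roots), a mean of 8.88-fold. It exceeded the elongation zone by 1.79 ± 0.44, and the elongation zone exceeded the meristematic zone by 1.36 ± 0.43.

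WRKY53 was low in the meristematic and elongation zones and higher in the maturation zone. In root 1 its intensity in meristematic sections 1 to 6 was 0.791, 0.659, 0.639, 0.691, 0.662 and 0.835, then 0.715 and 1.19 in the elongation zone, and 2.52, 4.93, 4.01 and 2.08 in maturation sections 1 to 4. In root 2 the values were 0.540, 0.533, 0.585, 0.596, 0.921 and 1.42, then 0.746 and 1.74, and 8.75, 7.66, 4.46 and 3.65. The peak was maturation section 2 in root 1 and section 1 in root 2, after which the intensity went down toward older tissue in both roots. By rank within the array the peaks were the same, but in root 1 section 4 (percentile 93.3) stood no lower than section 3 (92.9). In root 2 it did (87.6 and 92.8). The elongation sections overlapped with the meristematic ones. The maturation zone exceeded the meristematic zone by log2 2.17 in root 1 and 3.01 in root 2 (mean 2.59 ± 0.59 SD, 6.02-fold) and the elongation zone by 2.06 ± 0.38, while the elongation zone exceeded the meristematic zone by 0.53 ± 0.21. These differences rest on low meristematic values, at percentile 12.0 to 39.9 in root 1 and 16.2 to 81.3 in root 2, and no detection limit was set. With an offset of 1 before the log2, maturation minus meristem was 1.64 and elongation minus meristem 0.25.

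TET8 was low near the tip and highest in maturation section 2. In root 1 its intensity in meristematic sections 1 to 6 was 1.08, 1.04, 1.08, 1.34, 1.66 and 2.19, then 6.92 and 2.26 in the elongation zone, and 9.09, 13.9, 12.1 and 5.05 in maturation sections 1 to 4. In root 2 the values were 1.09, 1.46, 1.78, 3.99, 2.69 and 2.70, then 9.15 and 5.73, and 19.5, 25.4, 16.6 and 19.3. Elongation section 1 lay above section 2 in both roots, as for STZ, and in root 1 it also lay above the last maturation section. The drop between the elongation sections did not pass (log2 -1.15 ± 0.37 SE, limma adjusted p = 0.252), and after quantile normalization the difference was 0.0785. The maturation zone exceeded the meristematic zone by log2 2.80 in root 1 and 3.26 in root 2 (mean 3.03 ± 0.32 SD, 8.17-fold), the elongation zone by 1.36 ± 0.15, and the elongation zone exceeded the meristematic zone by 1.68 ± 0.17.

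**Figure D1:**
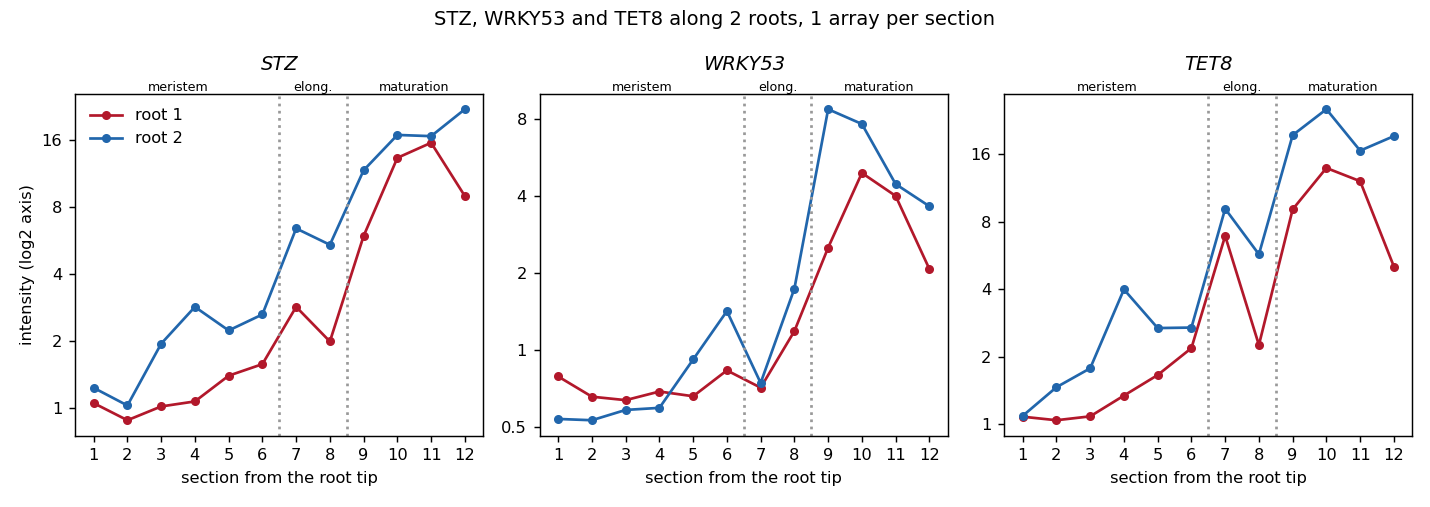
Intensity of STZ, WRKY53 and TET8 (log2 axis) in the 12 sections of root 1 (red) and root 2 (blue) counted from the tip, 1 array per point, with dotted lines between zones. All 3 are highest in a maturation section of each root, and root 2 lies above root 1 at 12 of 12 positions for STZ and TET8 and at 8 of 12 for WRKY53.

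By limma at an adjusted p under 0.05, the maturation zone exceeded the meristematic zone for 6.66% of all probe sets and fell short of it for 7.07%. Against the elongation zone these shares were 0.827% and 0.211%, and for elongation against meristematic zone they were 2.39% and 5.13%. The members were chosen on these contrasts, so nothing is read from them here. As a description, positions were ordered by mean level and neighbours were compared within roots. The order comes from the same values, so every mean difference is positive by construction. Of the 11 neighbours in the order the higher position was higher in both roots for 7 in STZ, 5 in WRKY53 and 6 in TET8, and the mean difference exceeded the SD of the 2 within-root differences for 6, 5 and 4. Among these were the step from the lowest maturation section (section 1, geometric mean 8.33) down to elongation section 1 (4.27) for STZ, a log2 difference of 0.96 ± 0.13 (SD), and that from maturation section 4 (2.76) down to elongation section 2 (1.44) for WRKY53, of 0.94 ± 0.19. For TET8 the step from maturation section 4 down to elongation section 1 was 0.31 ± 1.08, with opposite signs in the roots. The other neighbours, 5, 6 and 7 of 11, did not differ beyond their spread. An SD of 2 differences is imprecise, and the steps between zones belong to the contrasts that chose the members. The counts and steps therefore separate no sections.

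The roots differed in deposited intensity. STZ was higher in root 2 at 12 of 12 positions, by a mean log2 of 0.79, TET8 at 12 of 12 by 0.82, and WRKY53 at 8 of 12 by 0.34, with root 1 higher in meristematic sections 1 to 4. Across all probe sets the median of this mean difference was -0.09, and 7.30% of probe sets had a larger one than STZ, 6.74% than TET8 and 22.2% than WRKY53. The roots were closest in maturation section 3 for STZ (15.5 and 16.6), in meristematic section 1 for TET8 (1.08 and 1.09) and in elongation section 1 for WRKY53 (0.715 and 0.746). At each position the array of root 2 had the wider log2 spread, except in meristematic sections 5 and 6. Ranked within its own array, STZ stood higher in root 1 in meristematic section 1, elongation section 2 and maturation sections 1, 2 and 4. TET8 did so in meristematic section 1, both elongation sections and maturation section 1. Elsewhere both stood higher in root 2. The arrays of the roots carry titles of different series. Plant, batch and array spread thus cannot be told apart, and the difference was not tested.

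Differences among the sections of 1 zone were not used in the choice of the genes, and these were tested with limma on all 24 section arrays, with position and root as terms. STZ and TET8 rose along the meristematic zone, away from the tip. The slope of STZ was log2 0.21 ± 0.05 (SE) per section (limma adjusted p = 0.0204), with 0.14 in root 1 and 0.27 in root 2, and section 6 stood 1.50-fold and 2.14-fold above section 1. The slope of TET8 was 0.25 ± 0.06 (limma adjusted p = 0.0138), with 0.21 and 0.30, and section 6 stood 2.02-fold and 2.48-fold above section 1. For WRKY53 the slope was 0.14 ± 0.07 (limma adjusted p = 0.206), with 0.01 in root 1 and 0.27 in root 2. In the same test 4.08% of all probe sets rose and 10.7% fell, and of the 1514 probe sets higher in the maturation than in the meristematic zone 16.3% rose. The slope is thus not independent of the zone difference on which the members were chosen, and no test set them apart from the other genes of that kind.

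These 2 calls depended on the settings. With no replicate block, which leaves root out of the model, the adjusted p was 0.277 for STZ and 0.182 for TET8. It was 0.356 and 0.169 with the spread of every array made equal, 0.0875 and 0.0758 with an offset of 1 before the log2, and 0.111 and 0.0632 with a trended prior variance, so both calls were lost in each of these 4 settings. Both were kept after quantile normalization (0.00518 and 0.00038). Of the 24 fits that leave out 1 array, 20 kept the call for STZ and 22 for TET8. For STZ it was lost without meristematic section 6 of root 1 or section 1, 2 or 6 of root 2, and for TET8 without section 6 of root 1 or section 1 of root 2, with adjusted p values up to 0.216 and 0.169. The slope stayed above 0 in all of them.

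Each member was given 13 tests within zones, and the 2 meristem slopes were the only ones that passed. The F test over the 6 meristematic sections gave limma adjusted p values of 0.195 for STZ, 0.740 for WRKY53 and 0.155 for TET8, in a test that called 6.78% of all probe sets. TET8 passed it after quantile normalization (adjusted p = 0.00959). The F test over the 4 maturation sections called 0.347% of all probe sets and no member (adjusted p = 0.999999 for each, unadjusted p = 0.0398 for STZ, 0.0822 for WRKY53 and 0.138 for TET8). Along the maturation zone the slope per section was 0.24 ± 0.10 for STZ, -0.28 ± 0.13 for WRKY53 and -0.17 ± 0.12 for TET8 (limma adjusted p = 0.689, 0.772 and 0.999884), where 0.51% of all probe sets rose and 0.158% fell. STZ and WRKY53 thus sloped in opposite directions in each of the roots, but neither slope passed and the difference between them was not tested.

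Between the elongation sections, STZ changed by -0.38 ± 0.32 from section 1 to section 2, WRKY53 by 0.98 ± 0.41 and TET8 by -1.15 ± 0.37 (limma adjusted p = 0.502, 0.298 and 0.252), and none passed. In that comparison 0% of all probe sets rose and 0.136% fell. The sign of the STZ and TET8 differences rests on scaling: after quantile normalization they were 0.66 and 0.0785, and STZ was 0.25 with equal array spreads. Elongation section 2 of root 1 is the section array of least spread. Of the 8 steps between neighbours inside the meristematic and maturation zones 0 were called for any member by limma, and 1 had an unadjusted p under 0.05, the step of STZ from maturation section 1 to 2 (0.85 ± 0.32, unadjusted p = 0.0196).

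In the sorted cells, STZ was highest in phloem pole pericycle (line S17, 22.7), phloem companion cells (SUC2, 21.7) and lateral root primordia (RM1000, 20.4). Hair cells (COBL9) followed at 14.7, protophloem and metaphloem (S32) at 9.58, the mixed pericycle, xylem and phloem line J2501 at 9.42 and xylem pole pericycle (JO121) at 6.42, and meristematic xylem (S4) was lowest at 4.37. The range was 5.20-fold. Each line has 1 array, so no spread is known and neighbours in this order cannot be separated. Array spread differed as well, with a log2 SD of 0.879 in J2501, 0.997 in JO121 and 1.26 to 1.53 in the other lines. Ranked within its array, STZ stood higher in J2501 (percentile 98.5) than in COBL9 (97.4), and in JO121 (96.9) than in S32 (96.3). S17 (99.4) was highest and S4 (86.5) lowest by either measure.

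WRKY53 covered a 4.68-fold range at lower values. It was 2.15 in S17, 1.57 in RM1000 and 1.52 in COBL9, then 1.04 in JO121, 0.894 in J2501, 0.871 in SUC2, 0.715 in S32 and 0.459 in S4. SUC2, which ranked second for STZ, ranked sixth for WRKY53. Within their arrays, SUC2 (percentile 50.1) and J2501 (51.1) stood near the array median, S32 (35.7) and S4 (19.4) below it, and S17 was highest (77.6). No detection limit was set, so whether WRKY53 was expressed in the low lines was not tested, and their order and the fold range rest on low values.

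TET8 covered a 6.98-fold range, at 20.1 in S17, 16.6 in RM1000 and 10.8 in COBL9, followed by 7.99 in SUC2, 7.82 in JO121, 5.62 in S32, 3.56 in S4 and 2.88 in J2501. By rank within the array the order differed. S17 (percentile 99.2) and RM1000 (98.8) were still highest, but JO121 (97.6) stood above COBL9 (95.7) and SUC2 (95.5). S32 and J2501 were level at 93.1, and S4 was lowest (83.3). S17 was thus the highest line for all 3 genes, which holds for 9.95% of all probe sets. By intensity S4 was the lowest for STZ and WRKY53, as for 18.6% of all probe sets. S17, RM1000 and COBL9 were the 3 highest lines by intensity for WRKY53 and TET8. This arrangement was seen in 3.55% of all probe sets and was singled out after the values were seen.

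**Figure D2:**
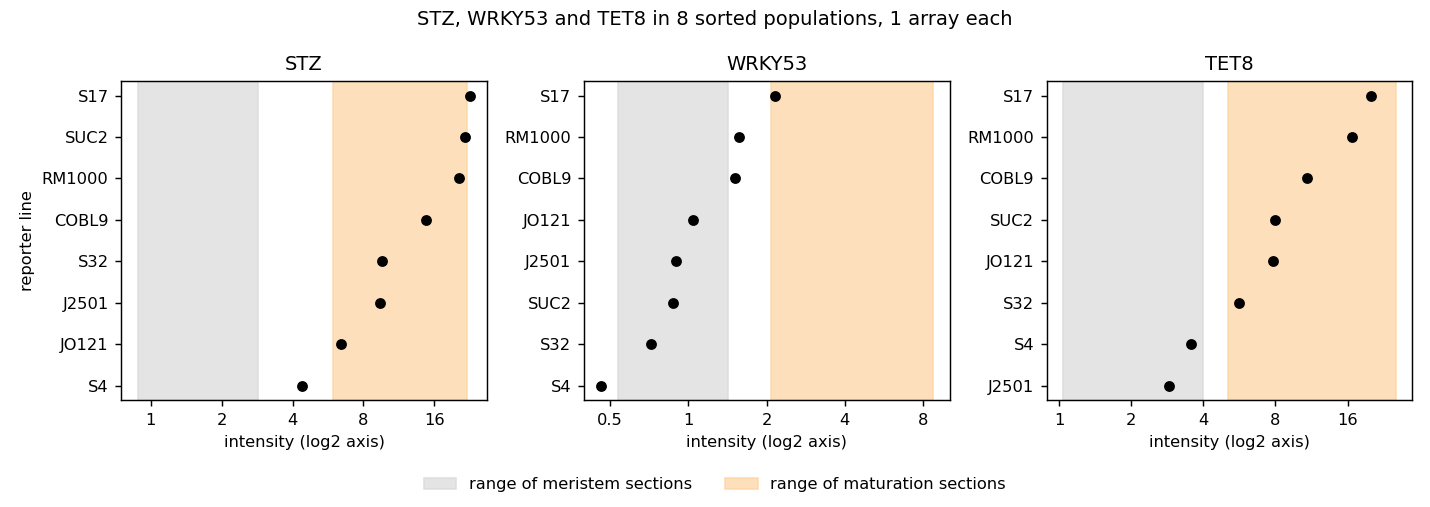
Intensity of STZ, WRKY53 and TET8 (log2 axis) in the 8 sorted populations, 1 array per point, ordered by level, over the range of the 12 meristematic sections (grey) and the 8 maturation sections (orange). Every sorted STZ value lies above the meristematic range, the sorted WRKY53 values reach no lower than 0.459 and no higher than 2.15, and S17 is highest in each panel.

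All 8 sorted populations, meristematic xylem included, had more STZ (lowest 4.37) than any of the 12 meristematic sections (highest 2.85), which was so for 0.769% of all probe sets. WRKY53 overlapped with the meristematic sections (lowest sorted 0.459, highest meristematic 1.42), and TET8 did as well (2.88 and 3.99). WRKY53 was 0.459 to 2.15 in the sorted populations and 2.08 to 8.75 in the 8 maturation sections (median 4.24). The meristematic and the maturation arrays both belong to the contrast that chose the genes, so these levels are a description. Sorted cells and sections differ in preparation as well as in cell type, and these cannot be told apart here.

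Genes of the fast response to stress and wounding were read in the same zones. The list held 60 genes besides the members, of which the platform annotation paired 7 with a probe set of their own. From the meristematic to the maturation zone 4 of 7 rose and 0 fell, beside 6.66% and 7.07% of all probe sets, and the median log2 change was 1.25, against -0.04 over all probe sets. The ubiquitin ligase genes PUB23, PUB22 and PUB24, which dampen immune signalling, rose by 2.05 ± 0.11, 1.85 ± 0.20 and 0.85 ± 0.19 (SE, n = 2 roots, limma adjusted p = 0.00395, 0.0106 and 0.0466), and BIK1, a kinase that relays immune receptor signals, rose by 1.56 ± 0.22 (adjusted p = 0.0178). The calmodulin-like genes CML38 and CML37 were at 1.25 ± 0.41 and 1.09 ± 0.29 and AT1G76640, also known as CML39, was at -0.47 ± 0.13, and these did not pass. The 4 rises became 1 with no replicate block, 0 with equal array spreads and 2 with an offset of 1, and PUB24 kept its call in 13 of the 24 fits that leave out 1 array. None of the 7 had a meristem slope that passed, in a test where 4.08% of all probe sets rose and 10.7% fell.

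In the sorted lines 5 of these 7 genes had S17, RM1000 and COBL9 as the 3 highest populations by intensity. WRKY53 and TET8 did so too, as did 3.55% of all probe sets. Of the 7 genes 6 were lowest in S4, as 18.6% of all probe sets were. PUB23 was 21.3 in COBL9, 14.2 in S17 and 10.7 in RM1000, and lay between 1.12 in S4 and 6.55 in SUC2 in the others. CML37 was 8.87, 7.96 and 8.48 in COBL9, S17 and RM1000 and between 0.699 and 2.27 elsewhere. CML38 was the 1 gene of the list with every sorted population above every meristematic section (lowest sorted 1.33, highest meristematic 1.04), which held for 0.769% of all probe sets. Over the 8 lines the Pearson correlation of log2 values of these genes was between 0.53 (AT1G76640) and 0.89 (BIK1) with STZ, between 0.73 (AT1G76640) and 0.88 (BIK1) with WRKY53 and between 0.69 (AT1G76640) and 0.93 (CML38) with TET8. Such values were not particular to the list. By correlation over the lines, a value of 0.75 with STZ ranked 909 among all probe sets, 0.76 with WRKY53 ranked 702 and 0.75 with TET8 ranked 1199. Outside the list, the dehydration and cold gene LTI30 was at 0.94, 0.82 and 0.80, and the tetraspanin gene TET14 at -0.63, -0.48 and -0.73. Each line is 1 array, and the lines share their preparation.

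Of 14 other tetraspanin genes measured, 0 rose and 0 fell from the meristematic to the maturation zone (limma, lowest adjusted p = 0.0632). With 6.66% of all probe sets rising and 7.07% falling, a count of 0 among 14 does not set the family apart. The differences ran from -0.87 ± 0.22 for TET7 to 1.38 ± 0.43 for TET5, with a median of 0.09. From the meristematic to the elongation zone, where 2.39% of all probe sets rose, 2 of the 14 did so, TET12 by 1.58 ± 0.28 and TET6 by 1.53 ± 0.29 (limma adjusted p = 0.0401 and 0.0455), but with no replicate block neither passed (0.104 and 0.457), and with 1 array left out they kept their calls in 20 and 17 of 24 fits. Along the meristematic zone TET6 rose by 0.33 ± 0.08 per section (adjusted p = 0.0164, and 0.229 with no replicate block), while TET10 fell by 0.23 on the log2 scale per section (SE 0.04, adjusted p = 0.00231), a call kept in every alternative run. In the sorted lines TET7 was highest in meristematic xylem (S4, 7.05) and hair cells (5.31), TET6 in companion cells (10.2) and TET5 in phloem pole pericycle (6.28). TET9, a close relative of TET8, was at 0.38 ± 0.15 between the zones (adjusted p = 0.169), and was 2.00 in S17 and 2.15 in RM1000.

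Of 70 other WRKY genes in the reference, the platform annotation paired 6 with a probe set of their own, so most of the family was not read. Of these 6 genes 1 rose from the meristematic to the maturation zone and 0 fell, with a median of 0.21, where 6.66% of all probe sets rose and 7.07% fell. This was WRKY47 at 0.88 ± 0.17 (limma adjusted p = 0.0339, and 0.0992 with no replicate block). WRKY22, an immune regulator, was at 0.80 ± 0.35 (adjusted p = 0.222) and WRKY6, which acts in senescence and phosphate responses, at 0.26 ± 0.16 (adjusted p = 0.385). Their levels in sorted cells differed from those of WRKY53: WRKY22 was highest in companion cells (8.22) and WRKY6 in hair cells (9.99).

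**Figure D3:**
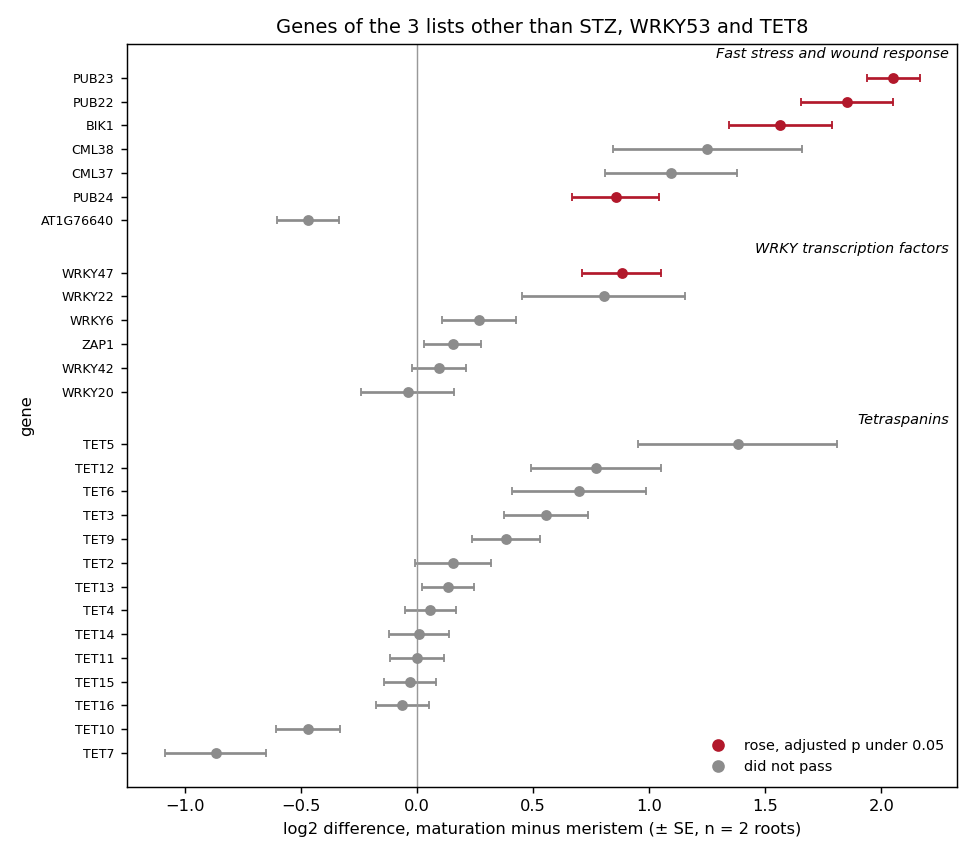
Log2 difference between the maturation and meristematic zones (points, with SE bars, n = 2 roots) for 27 genes of the fast stress, WRKY and tetraspanin lists, red where the limma adjusted p was under 0.05. Of the fast stress genes 4 of 7 rose, of the WRKY genes 1 of 6 and of the tetraspanins 0 of 14.

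In 5 further stress lists 3 of 21 genes rose between the same zones and 1 fell, beside 6.66% and 7.07% of all probe sets. In the order below the lists held 57, 53, 43, 41 and 43 genes, most without a probe set of their own in the annotation. Of 3 ethylene response factor genes 1 rose, tny, by 2.55 ± 0.49 (limma adjusted p = 0.0335), and of 5 genes of reactive oxygen enzymes 1 rose, the glutathione reductase gene GR1, by 1.15 ± 0.20 (adjusted p = 0.0278). Of 6 dehydration and cold genes COR47, a dehydrin gene, rose by 3.18 ± 0.37 (adjusted p = 0.0120) and DI21 fell by 2.25 (SE 0.12, adjusted p = 0.00395). With no replicate block DI21 alone of these 4 passed, and with equal array spreads none did. None of 4 jasmonate genes passed, with OPCL1 at 0.51 ± 0.17 and MYC3 at 0.17 ± 0.12 (adjusted p = 0.121 and 0.476), and none of 3 genes of salicylate, immunity and senescence, with SAG101 at 0.50 ± 0.18 and SAG29 at 0.11 ± 0.13 (adjusted p = 0.151 and 0.728). The platform annotation paired no other gene of the zinc finger family of STZ with a probe set of its own. It lists 8730 probe sets under no gene, so such genes may be on the array unnamed.

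The genes most like each member along the root were ranked by the lower of the Pearson correlations over the 12 positions in each root, among 13349 genes. STZ was most like AT3G13610, named F6'H1 in the reference, an enzyme gene of coumarin synthesis (0.971), and then AT3G10930, AT2G25450, AT5G17350 and AT1G19020 (down to 0.962). WRKY53 was most like AT5G46295 (0.977), followed by AT1G51920, AT2G19410, AT5G59540 and DLAH, a DAD1-like acylhydrolase gene (down to 0.954). TET8 was most like AT1G19020 (0.978), followed by AT5G05600, AT3G11780, AT4G30450 and AT1G13930 (down to 0.949). Sections of a root share its RNA preparation and the large contrast between zones, so the correlations describe these 2 roots and have no test. The ranking depended on the measure: with Spearman correlation 0, 1 and 0 of the 5 genes were the same for STZ, WRKY53 and TET8, and with the mean of the 2 roots 3, 4 and 3.

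Likeness along the root did not always extend to the sorted cells. AT1G19020, listed for both STZ and TET8, also resembled them over the 8 lines (r = 0.88 and 0.86), and AT5G17350 resembled STZ (0.90). AT3G13610 did so less (0.30), and AT1G51920 and AT2G19410 had correlations of -0.03 and -0.13 with WRKY53 there. Among the members, STZ and TET8 had a likeness of 0.943 along the root, STZ and WRKY53 of 0.873 and WRKY53 and TET8 of 0.863. All 3 were chosen for a higher maturation zone, so a high likeness among them follows in part from that choice. STZ ranked 12 among the genes most like TET8, and TET8 ranked 27 among those most like STZ. WRKY53 ranked 175 among the genes most like STZ and 177 among those most like TET8. A likeness over 0.9 was reached by 102 genes for STZ, 69 for WRKY53 and 76 for TET8. Over the sorted lines the correlation was 0.75 for STZ and TET8, 0.76 for STZ and WRKY53 and 0.86 for WRKY53 and TET8 (n = 8 arrays). Over the sorted lines the pairs of STZ with TET8 and of STZ with WRKY53 were thus nearly level. This is a description of 3 values without a test.

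**Figure D4:**
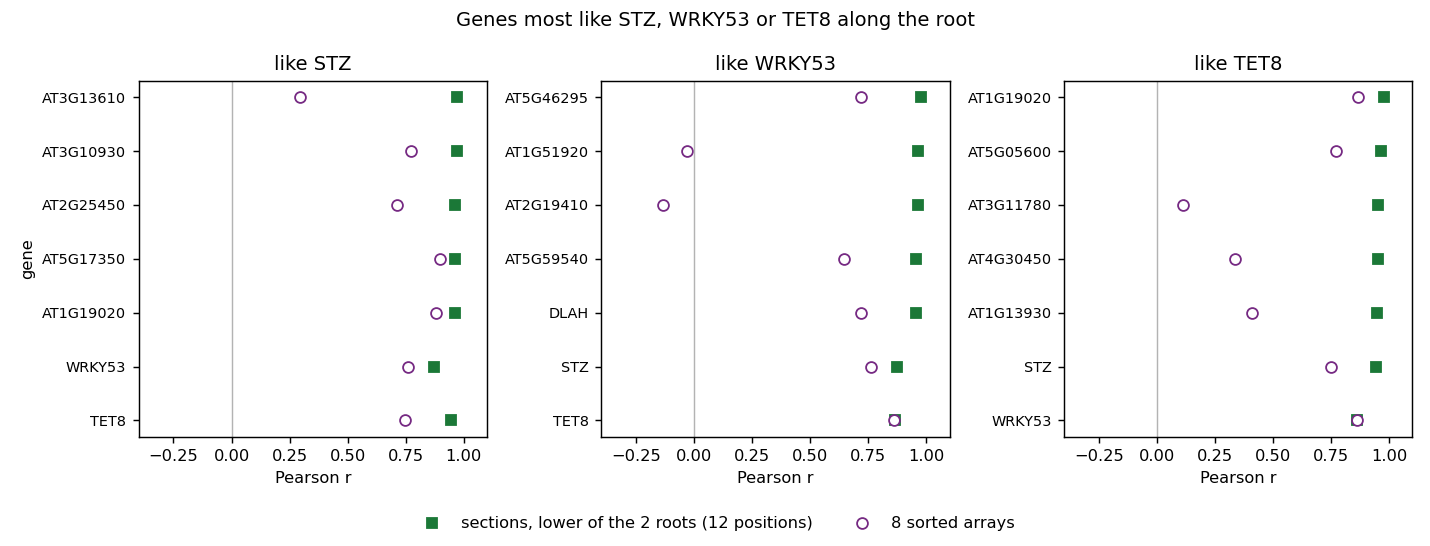
Pearson correlation of log2 values with STZ, WRKY53 or TET8 for the 5 genes most like each along the root and for the other members, as the lower of the 2 roots over 12 sections (green squares) and over the 8 sorted arrays (open circles). Along the root the 5 listed genes lie between 0.949 and 0.978, and over the sorted arrays between -0.13 and 0.90.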

How the data were processed

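Intensity values per probe set were used as deposited by the authors, all above 0 with array medians near 1. Per the labels' protocols RNA was amplified in the Affymetrix 2-cycle protocol, and the background correction, summarisation and scaling steps are not given here by any label or header. Whether a sorted array is single or a mean is not stated. From the deposited intensity, log2 values were taken with an offset of 0 and no filter. Of 22746 probe sets the platform annotation paired 13513 with 1 gene, 503 with several and listed 8730 under none, and 13436 matched the TAIR10.1 annotation, used for names only. The 3 members, the gene lists and the tests were chosen with earlier results of these data known.

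Tests within zones used limma (3.58.1, R 4.3.3) on 24 section arrays with position and root as terms (11 residual and 3.62 prior degrees of freedom). List genes were tested between zones on the mean log2 value per zone and root, 6 values, with root as a block (2 residual and 3.06 prior degrees of freedom). P values are two-sided, with Benjamini-Hochberg adjustment across the 22746 probe sets and a threshold of 0.05. Sections with the same root number are cut from 1 plant, so the numbers pair the samples; over 66 pairs of positions the root differences had a median correlation of 0.477 (-0.233 to 0.834, 50 over 0.1). With root as a term, the p-values rest on how the difference between the 2 roots varied over positions or zones. They do not cover the spread between plants, and sections of a root are not independent.

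Named list genes are up to 4 that passed between maturation and meristematic zone in the direction of the list median, the largest passing in the other direction, or the 2 largest where none passed; others named were chosen after their values were seen. In simulated data on this design, of 100 probe sets given a meristem slope of 0.25, 58 were recovered with 2 false calls, and of 100 changed by log2 2 between zones 84, with 0. The simulated errors were independent, and each probe set had the same SD in every array. Real sections of a root are not independent and real arrays differ in spread, so these counts do not show the error rate of the real calls. Alternatives were no replicate block, 2 scalings, 2 offsets, a trended prior, a filter on dim probe sets, each array left out and, added after the spreads were seen, the root 1 section arrays of log2 SD under 0.7 left out.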

Additional observations from a re-analysis of the deposited data

How the results depend on the processing

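The directions of the zone differences of STZ, WRKY53 and TET8 and of their meristem slopes held in all settings tried, whereas the calls of the slopes did not; the causes of the changes were not tested. With no replicate block the slopes of STZ and TET8 were again 0.21 and 0.25 but did not pass. Rising and falling probe sets then numbered 531 and 1412 along the meristematic zone (928 and 2424 with the block) and 73 and 23 along the maturation zone (116 and 36), 5 fell between the elongation sections (31), and among list genes 0 WRKY genes and 1 fast stress gene rose in the maturation zone and 0 tetraspanins in the elongation zone. After quantile normalization elongation section 2 minus 1 was 0.66 for STZ and 0.0785 for TET8, and the meristem F test of TET8 passed (adjusted p = 0.00959). Maturation minus meristem was 3.19 for STZ, and for TET8 maturation minus elongation was 1.13 and elongation minus meristem 1.95. Along the meristematic zone 1615 probe sets rose, along the maturation zone 261 rose and 206 fell, and between the elongation sections 8 rose and 14 fell; 1 tetraspanin rose and 1 fell in the maturation zone, and 1 fast stress gene rose in the elongation zone. With equal array spreads the slopes of STZ and TET8 were 0.29 and 0.36 and did not pass, STZ changed by 0.25 between the elongation sections and by 3.04 from meristem to maturation, and TET8 by 1.19 from elongation to maturation. In that setting 1423 probe sets rose along the meristematic zone, 90 fell along the maturation zone and 2 fell between the elongation sections, and 0 WRKY, 0 tetraspanin and 0 fast stress genes rose. With an offset of 1 the slopes were 0.12 and 0.16 and did not pass. Maturation minus meristem was then 2.49 for STZ, 1.64 for WRKY53 and 2.44 for TET8, maturation minus elongation 1.38 for WRKY53 and 1.19 for TET8, and elongation minus meristem 0.25 and 1.25; 1 probe set rose and 51 fell between the elongation sections, and 0 WRKY, 0 tetraspanin and 2 fast stress genes rose. With an offset of 0.1 STZ rose by 3.06 into the maturation zone, 1 probe set rose between the elongation sections and 1 tetraspanin rose in the elongation zone. With a trended prior the slopes of 0.21 and 0.25 did not pass, 187 probe sets rose and 80 fell along the maturation zone, 1 rose between the elongation sections, 1 tetraspanin rose and 2 fell in the maturation zone, 1 fell in the elongation zone and 1 fast stress gene fell.

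Without the root 1 section arrays of log2 SD under 0.7, an alternative added after the data were seen, the meristem slope of WRKY53 passed (0.19, adjusted p = 0.0239) and so did the meristem F test of TET8 (adjusted p = 0.0328). Maturation minus meristem was 3.38 for STZ, maturation minus elongation 2.49 for WRKY53 and 1.19 for TET8, and elongation minus meristem 2.05 for TET8; 256 probe sets rose and 95 fell along the maturation zone, 0 fell between the elongation sections, 1 tetraspanin rose in the maturation zone and 1 fast stress gene in the elongation zone. With each array left out in turn, the slope was 0.16 to 0.25 for STZ and 0.19 to 0.32 for TET8, and the maturation slope of TET8 was -0.35 to 0.0118, above 0 only without maturation section 4 of root 1. Maturation minus meristem was 3.05 to 3.28 for STZ, maturation minus elongation 0.95 to 1.76 and elongation minus meristem 1.27 to 2.08 for TET8, and elongation minus meristem 0.22 to 0.83 for WRKY53. Probe sets that rose and fell numbered 319 to 1109 and 525 to 3241 along the meristematic zone, 44 to 301 and 7 to 101 along the maturation zone, and 0 to 90 and 0 to 205 between the elongation sections. In the maturation zone 0 to 1 tetraspanins rose, 0 to 1 fell and 0 to 1 WRKY genes rose, and in the elongation zone 0 to 2 tetraspanins and 0 to 1 fast stress genes rose. Every call rests on 2 roots.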

Other observations

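Some other stress genes exceeded every section in most or all of the sorted lines. ORA47 (AT1G74930), an ethylene response factor gene that activates jasmonate synthesis, stayed low along both roots, between 0.695 and 1.18 over all 24 section arrays, with a maturation minus meristem difference of log2 0.04 ± 0.11 (SE, limma adjusted p = 0.889). In the sorted populations it was 14.0 in S17, 11.4 in RM1000, 11.1 in SUC2, 5.07 in COBL9, 4.70 in S32, 2.71 in JO121, 2.65 in S4 and 1.48 in J2501. All 8 thus exceeded every section, as for 0.145% of all probe sets. OPCL1, a gene of jasmonate synthesis, exceeded its highest section (4.35) in 7 of 8 lines, with 15.8 in RM1000 and 15.5 in S17. AT1G76640 (CML39) exceeded its highest section (3.30) in 7 of 8 lines as well, with a highest value of 8.53 in S17. STZ did so in 1 line (S17, 22.7 against 22.0), and WRKY53 and TET8 in 0. The members were chosen for high maturation sections, which raises their highest section. Their counts are therefore not set against those of the other genes. These genes were singled out after their values were seen. The authors' scaling of sorted and section arrays is unstated, and cell type, preparation and plant age differ between them and cannot be told apart.

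The columella section of root 1 has no second root and entered no comparison. There STZ was 1.27, WRKY53 0.995 and TET8 1.25, on the array with the smallest spread (log2 SD 0.137).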
